A study of Mus musculus with 47 samples.

Results

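Both alleles of a gene in a diploid cell are read by the same transcription factors and share the same nucleus, so a difference between cells that acts on the gene as a whole moves both alleles together. Each allele is nevertheless transcribed in its own bursts, with silent intervals in between, and these bursts move 1 allele without the other. In a cell from a cross of distinguishable strains, the covariance of the 2 alleles over cells therefore measures the variation that they share, and the variance of their difference measures the variation that is particular to each allele. The split was made here for autosomal genes in mouse induced pluripotent stem cells (iPSCs) with 2 X chromosomes. These were the 23 of 47 sequenced cells whose deposited column names call them bi-allelic, and they are named XX cells below. The genes were all autosomal genes outside chromosome 1 whose counts averaged 5 or more per cell on the Cast allele and also on the Mus allele. This kept 1697 of 12625 such autosomal genes and of 13947 genes in all.

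The iPSCs came from female hybrid embryonic fibroblasts, with 1 genome of Mus and 1 of Cast origin, that were reprogrammed with lentiviral, doxycycline-induced factors, and they were grown in medium with LIF and serum. The labels and the culture methods add ascorbic acid to the medium of iPSCs, whereas the derivation methods describe iPSC controls as passaged without it. All cells shared this background, and the labels name no age, no clone and no separate culture. The remaining cells had a single X chromosome by their column names, 15 with the Cast X and 9 with the Mus X, and these 24 XO cells served as a second set of cells for the same genes. Cells were sorted into a GpC methylase mix on 1 plate before their mRNA was amplified. As these cells come from a single plate and stand for no separate cultures, no test was made over cells or genes. The range given with a value is the one found when each cell is left out in turn. It shows the influence of single cells and is no measure of the sampling error.

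XX cells held 130816 to 198307 allelic counts (median 164722) and 4529 to 5799 genes with a read, and XO cells held 71682 to 216451 counts. The Mus allele made up 41.9% to 44% of the autosomal counts of an XX cell. Chromosome 1 stood apart, with a Mus share of 27.6% to 47.6% over XX cells and a wider range than on any other autosome, and it was left out. Pou5f1, Sox2, Nanog, Esrrb and Tdh, which mark pluripotent cells, were read in all 23 XX cells and Zfp42 in 22. Of 4 fibroblast markers in the table, Col1a2 and Postn were at 0, Col1a1 had 6 counts over all XX cells and Thy1 had 30 counts in 6 cells. Of 3 primitive endoderm markers, Gata6 and Gata4 were at 0 and Sox7 had 3 counts. The summed level of these 4 fibroblast markers was at most 0.619 per 10000 counts in any XX cell and that of the 3 endoderm markers at most 0.195, against 15.4 to 73.7 for 6 pluripotency markers. Genes that these other cells express without being particular to them were read, among them Sparc, with means of 37.1 (Cast) and 53.1 (Mus) counts per cell, and Vim, with 5.78 and 15.6.

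Each cell's counts were scaled to its total, and each allele of a gene was divided by its mean over the XX cells. The shared part is the covariance of the scaled alleles, the allele-specific part is 0.5 times the variance of their difference, and both add up to the mean squared coefficient of variation (CV squared) of the alleles. The shared share is the shared part over this total. It is 1 when the alleles move in step and near 0 when they move independently, and it is negative when 1 allele is high where the other is low. Most of the variation was allele-specific. The median shared CV squared over the 1697 genes was 0.0920 (0.0865 to 0.0940 without any 1 cell) and the median allele-specific CV squared was 0.518 (0.499 to 0.525). The allele-specific part was the larger for 1492 of the genes. The median shared share was 0.192 (0.180 to 0.197), with quartiles of 0.0186 and 0.362 and extremes of -0.545 and 0.912. A shared share of at least 0.5 was found for 205 genes, or 12.1%, and a negative one for 391 genes, or 23.0%.

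Sampling of reads falls in the allele-specific part, since it is independent on the alleles. Its size, taken as if every count were an independent molecule, had a median of 0.0839 in CV squared, and the allele-specific part exceeded it in all 1697 genes, by a median factor of 7.06. This factor does not measure bursts alone. A count of 2 was commoner than a count of 1 (13.6% and 4.58% of the values above 0), so that counts are not single molecules throughout, and the libraries went through 23 cycles of amplification without molecular identifiers. Of the members 360 overlap another counted gene, and as the libraries do not keep the strand, reads of overlapping and antisense genes cannot be told apart. The counting part is a lower bound, and the part of amplification in the allele-specific variance was not tested.

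The allele-specific part fell steeply with expression, whereas the shared part fell less. Among the 816 genes with a mean of 5 to 10 counts on the lower of the alleles, the median allele-specific CV squared was 0.816 and the median shared CV squared was 0.138. Among the 31 genes averaging 100 counts or more, the values were 0.0479 and 0.0442. The shared share rose accordingly, from 0.160 to 0.181, 0.218, 0.327 and 0.552 in bins that start at 5, 10, 20, 50 and 100 counts. Of the 31 genes in the highest bin, 18 (58.1%) had a shared share of at least 0.5, against 9.68% in the lowest bin. Over the 1697 genes, Spearman's rho with the mean of the lower allele was -0.668 for the allele-specific part, -0.159 for the shared part and 0.136 for the shared share, as a description over genes that share their cells.

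**Figure D1:**
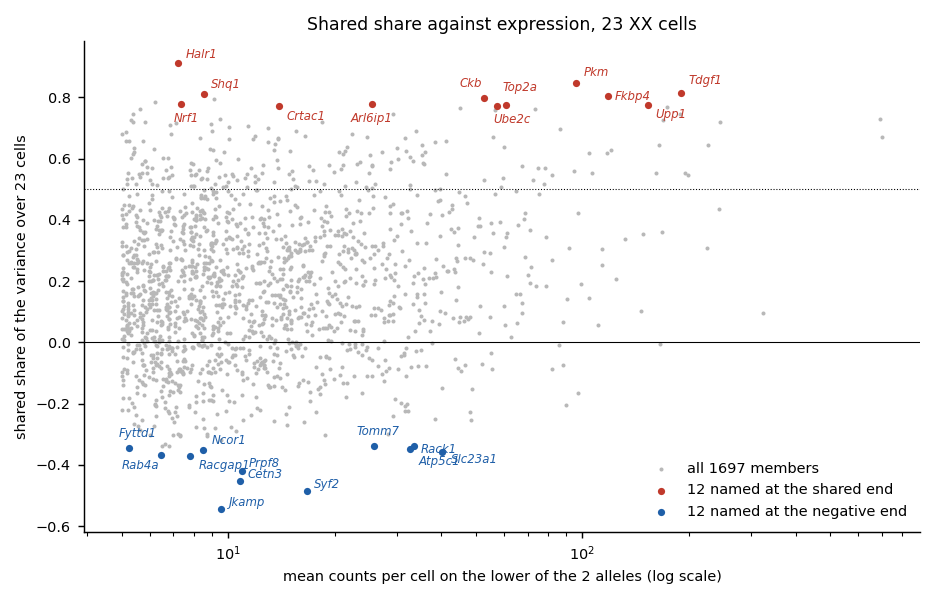
The shared share of each of the 1697 genes over the 23 XX cells is plotted against the mean counts per cell of the lower allele on a log scale, with the genes named at either end in colour. The dotted line marks 0.5. The genes named at the shared end lie between means of 7.22 and 189.7 counts, and those at the negative end between 5.26 and 40.2.

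Reads of both alleles were found in 78.9% of the 39031 combinations of a gene and an XX cell, reads of Cast without Mus in 8.37%, of Mus without Cast in 7.11% and of neither in 5.61%. Every XX cell had reads of both alleles for 433 genes. Among the 100 genes with the highest allele-specific CV squared, both alleles were read in 38.1% of combinations and a single allele in 20.1% (Cast) and 20.0% (Mus). Among the 100 genes with the lowest, both were read in 99.8%.

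At the shared end stood 12 genes with the highest shared shares among those that stayed at or above 0.5 without any 1 cell. They come from energy metabolism (Pkm, Ckb), the cell cycle (Top2a, Ube2c), pluripotency (Tdgf1) and protein folding (Fkbp4), and include the noncoding RNA Halr1. These values chose the genes and are a description. The split of the same genes in XO cells, which the choice did not use, is given beside them.

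Pkm encodes the pyruvate kinase of the last step of glycolysis (GRCm38 chr9:59656368-59679375). Its Cast allele ranged from 5.55 to 23.0 per 10000 counts over XX cells with a median of 12.3, and its Mus allele from 2.04 to 11.9 with a median of 5.21. In 19 of the 23 cells both alleles lay on the same side of their median. The shared CV squared was 0.105 and the allele-specific CV squared 0.0192, which gave a shared share of 0.845 (0.776 to 0.883 without any 1 cell), and XO cells gave 0.750. The XO classes differed, with 0.862 in the cells with the Cast X and 0.298 in those with the Mus X.

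Ckb, the brain-type creatine kinase (chr12:111669361-111672338), varied more widely, from 0.742 to 7.87 on Cast (median 2.67) and from 0.743 to 14.2 on Mus (median 4.14). The same cells were high on both alleles, with a correlation of 0.80 over the 23 cells and a shared share of 0.799 (0.736 to 0.849). In XO cells the shared share was 0.900. Upp1, a uridine phosphorylase (chr11:9118103-9136170), spanned 0.842 to 34.6 on Cast and 1.71 to 29.5 on Mus, with medians of 6.19 and 6.07. Its shared share of 0.775 (0.638 to 0.831) was 0.689 in XO cells. A single cell held 17.5% of its counts before scaling, and the same cell was also the highest for Arl6ip1, Top2a, Crtac1 and Ube2c.

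Tdgf1 encodes Cripto, the co-receptor of Nodal (chr9:110939603-110946158). It ranged from 6.19 to 39.2 on Cast (median 25.6) and from 3.15 to 22 on Mus (median 11.9). In 21 of 23 cells the alleles lay on the same side of their median. Its shared share was 0.813 (0.786 to 0.841), and 0.661 in XO cells, with 0.851 for the Cast X and 0.306 for the Mus X. Fkbp4, a co-chaperone of Hsp90, had alleles of 4.8 to 22.5 and 3.25 to 16.8 and a shared share of 0.804, with 0.652 in XO cells.

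The mitotic genes Top2a and Ube2c and a further gene, Arl6ip1, were correlated across alleles. Top2a, the DNA topoisomerase that untangles sister chromatids (chr11:98992943-99024189), ranged from 0.420 to 10.4 on Cast (median 5.08) and from 0 to 9.20 on Mus (median 3.91). The cell without a Mus read of Top2a also had the lowest Cast value. Its shared share was 0.774 (0.735 to 0.811) and 0.777 in XO cells. Ube2c, the ubiquitin-conjugating enzyme of the anaphase-promoting complex (chr2:164769898-164778822), had a shared share of 0.770, and 0.699 in XO cells. Its alleles lay on the same side of their median in 21 XX cells. Arl6ip1, which encodes a membrane protein of the endoplasmic reticulum and was on no list, had 0.778 and 0.676 in XO cells. The genes whose opposite allele followed Arl6ip1 most closely among all members were Top2a (mean cross-allele correlation 0.735) and Ube2c (0.715), by the measure of Cast of 1 gene against Mus of the other and the reverse over the 23 cells.

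The remaining genes of this end were read in fewer counts. Halr1, a noncoding RNA beside the Hoxa genes (chr6:52102949-52113684), had no read in 11 cells, and its alleles reached 3.84 and 3.91 per 10000. Cast was read without Mus in 3 cells and Mus without Cast in 1, so that 8 cells had both. Its shared share of 0.912 was the highest of all members and lay between 0.800 and 0.982 without any 1 cell, and in XO cells it was 0.550. Shq1, a factor of small nucleolar RNP assembly, and Crtac1, a cartilage acidic protein gene, had shared shares of 0.811 and 0.772 in XX cells. In XO cells these were 0.131 and -0.140, the lowest of the 12 genes. Nrf1, a transcription factor of nuclear genes for mitochondrial function, had 0.780 and 0.333.

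**Figure D2:**
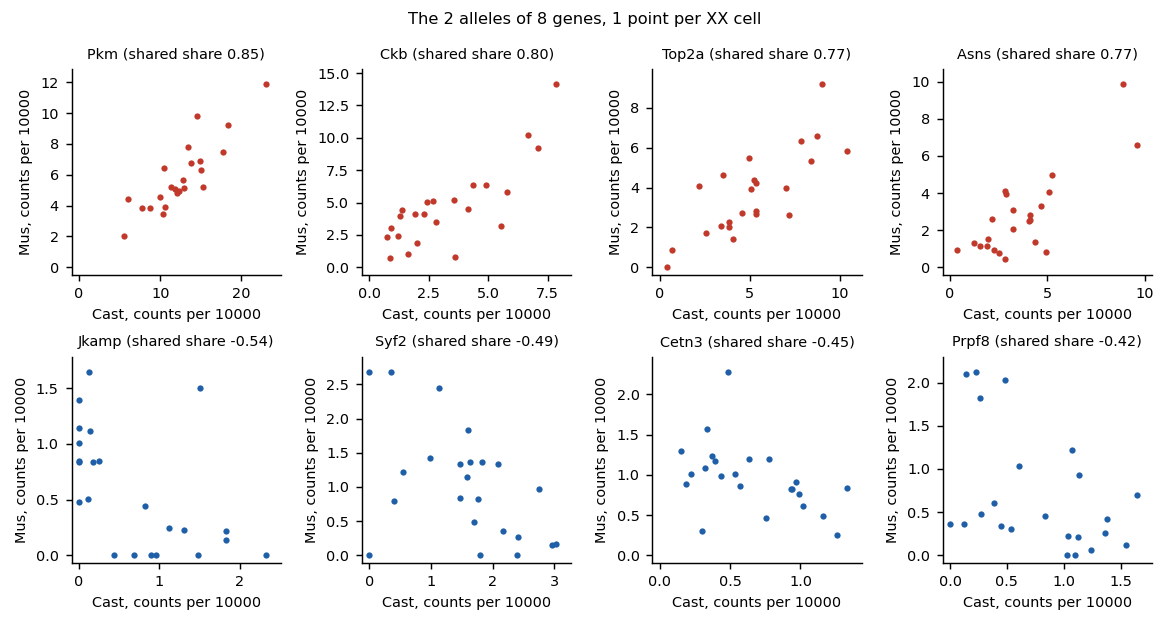
Cast (x axis) and Mus (y axis) counts per 10000 allelic counts are plotted for 8 genes, with 1 point for each of the 23 XX cells. For Pkm, Ckb, Top2a and Asns the points rise together, and for Jkamp, Syf2, Cetn3 and Prpf8 cells high on 1 allele tend to be low on the other.

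The highest shared CV squared belonged to genes with much of their signal in a single cell. Hesx1, a homeobox transcription factor, had a shared CV squared of 4.11, followed by Halr1 (3.91), Naaa, a lysosomal amidase (3.21), Sdc4, a syndecan (2.36), and Cldn4, a claudin of tight junctions (2.32). In each of them 31.1% to 44% of the counts of the gene, before scaling, came from a single cell. Capg, which encodes an actin-capping protein, had the highest value of all, 4.34. Yet the cell of well B02 held 45.3% of the Capg counts, and without that cell the shared share of Capg went from 0.726 to -0.131. Hesx1 went to 0.192 without the cell of well F06 and Naaa to 0.256 without that of G03. Cldn4 and Capg peaked in the same cell, and the cross-allele correlation of the pair was 0.76. In XO cells Sdc4 and Naaa had shared shares of 0.890 and 0.767, Cldn4 had 0.297 and Hesx1 had -0.0293.

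At the other end, 12 genes with the lowest shared shares stayed below 0 without any 1 cell. They were genes of RNA splicing and export (Syf2, Prpf8, Fyttd1), the centrosome and cytokinesis (Cetn3, Racgap1) and mitochondria (Atp5c1, Tomm7). The others were genes of membrane traffic (Rab4a), translation (Rack1) and transcriptional repression (Ncor1), besides Jkamp and the ascorbate transporter gene Slc23a1. These values chose the genes, and in XO cells their median shared share was 0.167, next to 0.174 for all members. Slc23a1, Ncor1, Fyttd1 and Rack1 overlap another counted gene, and their reads may be shared with it.

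Jkamp, a membrane protein gene of the endoplasmic reticulum (chr12:72085589-72101461), had the lowest value, -0.545 (-0.704 to -0.503). Cast ranged from 0 to 2.33 per 10000 with a median of 0.438, and Mus from 0 to 1.65 with a median of 0.479. Every XX cell had a read of Jkamp, but 6 cells had Cast without Mus and 6 had Mus without Cast. In 3 of 23 cells both alleles lay on the same side of their median. The sum of the alleles thus varied less than it would for alleles that move independently. In XO cells the shared share was -0.304, and it was negative in both classes of XO cells (-0.466 with the Cast X and -0.287 with the Mus X).

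Cetn3, which encodes a centrin, had reads of both alleles in all 23 cells, with 0.153 to 1.33 on Cast (median 0.571) and 0.252 to 2.28 on Mus (median 0.911). Its shared share was -0.453 (-0.564 to -0.368) and -0.279 in XO cells. Syf2 had a shared share of -0.487 and Prpf8, the core protein of the U5 spliceosomal particle, one of -0.418. In XO cells they stood at 0.161 and 0.283, above 0. Atp5c1, the gamma subunit of ATP synthase, had reads of 0.810 to 3.59 on Cast (median 1.91) and 1.37 to 4.50 on Mus (median 2.95), and its shared share was -0.347 (-0.421 to -0.258) with both alleles read in every cell. XO cells gave 0.155. Tomm7, of the mitochondrial import pore, went from -0.339 to 0.648, the largest difference of the 12 genes, and in the 15 XO cells with the Cast X it was 0.0457.

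The allele-specific CV squared was highest for Hspa13, an Hsp70-family gene (6.28), Zfp704 (5.77), Gldc, the glycine decarboxylase of the glycine cleavage system (5.47), Snhg11, a host gene of small nucleolar RNAs (4.97), Eral1, a factor of the small mitochondrial ribosomal subunit (4.88), and Ptprtos (4.51). Zfp704 and Ptprtos overlap another counted gene. Eral1 was not read in 7 of the 23 cells, was read from Cast without Mus in 5 and from Mus without Cast in 7, and thus had both alleles in 4 cells. Hspa13 had Cast without Mus in 9 cells and Mus without Cast in 4, and 1 cell held 46.8% of its counts.

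The steadiest genes were Rplp0, Rpl8, Npm1, Hsp90ab1 and Rpl14, genes of the ribosome, of its assembly and of protein folding. For these genes processed copies elsewhere in the genome make the assignment of some reads uncertain. Rplp0, a protein of the ribosomal stalk, had alleles of 15.1 to 24.3 on Cast (median 20.6) and 11.2 to 20.0 on Mus (median 14.9), a shared CV squared of 0.0180 and an allele-specific CV squared of 0.00706 with a counting part of 0.00362. Its shared share was 0.718 in XX and 0.776 in XO cells. Hsp90ab1, with 28.9 to 58.4 on Cast and 25.9 to 61.1 on Mus, had 0.672. Rpl8 and Npm1, at a like total variation, had 0.208 and 0.217.

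Gene lists chosen for these cells were then set against all members, of which 12.1% reached 0.5 in XX and 13.6% in XO cells. Among the lists, glycolysis had the highest median cross-allele correlation between its members, 0.359. It converts glucose to pyruvate, is used strongly by pluripotent cells, and is regulated in common by hypoxia-inducible factors and MYC. Of the 30 genes of the list, 14 passed the filter on expression, with P4ha1, a collagen prolyl hydroxylase gene, and Ankrd37 among them, which are known hypoxia targets and not enzymes of the pathway. Their median shared share was 0.497 and 7 of the 14 reached 0.5, against a median of 0.192 and 12.1% over all members and a median of 0.181 over members with a mean of 10 to 20 counts, the range of the median gene of the list. The most expressed of the 14 stood higher, with means on the lower allele of 96.0 (Pkm), 168.9 (Aldoa), 188.7 (Eno1) and 226.1 (Ldha) counts, and among all members 26.4% reached 0.5 between 50 and 100 counts and 58.1% above. The 7 genes were Pkm (0.845), the enolase gene Eno1 (0.745), the aldolase gene Aldoa (0.725), the lactate dehydrogenase gene Ldha (0.646), Pfkp (0.584), the glucose transporter gene Slc2a3 (0.574) and the hexokinase gene Hk2 (0.527). The lowest was Pdk1, an inhibitor of pyruvate oxidation, with 0.173. None of the 14 was negative. Without each gene's highest cell, 4 of the 14 and 101 of all members reached 0.5. In XO cells the list had a median of 0.436 and again 7 genes at or above 0.5, and Eno1, Aldoa and Ldha had 0.859, 0.803 and 0.765.

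The covariation held between genes and not only within them. For each pair of glycolysis genes, Cast of 1 gene was correlated with Mus of the other over the 23 cells, so that different genes on different parental chromosomes were compared. The median over the 182 ordered pairs was 0.359 (0.303 to 0.393 without any 1 cell), and 28.6% of the pairs exceeded 0.5. Over all members the median was -0.005 and 1.43% exceeded 0.5. In XO cells the median of the list was 0.262. The difference between the alleles had a median correlation of 0.018 between glycolysis genes. Averaged over the 14 genes, the scaled Cast values of a cell ran from 0.341 to 2.44 and the scaled Mus values from 0.266 to 2.01. The same cells were low or high on both alleles, and the shared share of this mean was 0.855 (0.825 to 0.884).

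**Figure D3:**
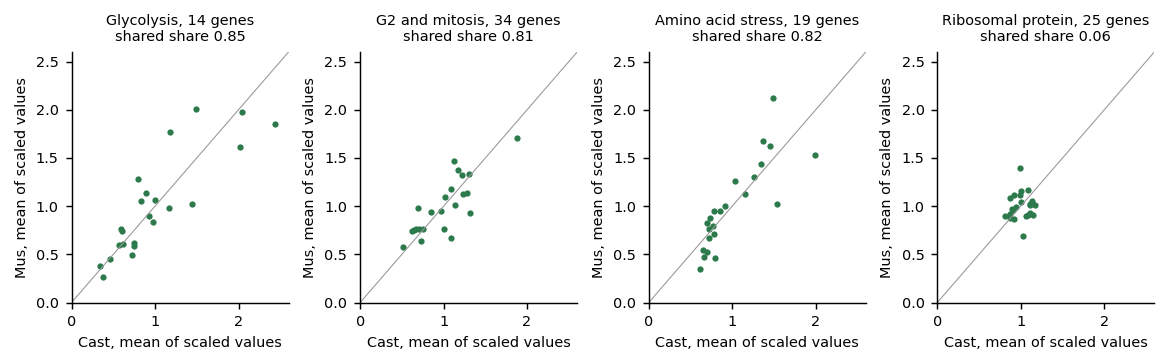
For 4 gene lists, the mean over genes of the scaled Cast values (x axis) and of the scaled Mus values (y axis) is plotted for each of the 23 XX cells, on equal axes from 0 with the line of equality in grey. The cells spread along the line for glycolysis, mitosis and amino acid stress genes (shared shares of 0.855, 0.807 and 0.816), and lie in a compact cloud for ribosomal protein genes (0.0618). The same share, not drawn, was 0.712 for S phase, 0.641 for oxidative phosphorylation and 0.552 for the proteasome.

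Genes of G2 and mitosis rise as cells approach division, and in many of them a CCAAT box bound by NF-Y and a cell cycle homology region with the letters TTTGAA restrict transcription to that time. Of 58 listed genes 34 passed, with a median shared share of 0.355 and 8 genes at or above 0.5: Top2a, Ube2c, the tubulin gene Tubb4b (0.689), the spindle genes Hmmr (0.681) and Psrc1 (0.671), Cdc20 (0.638), an activator of the anaphase-promoting complex, and the kinesin genes Kif2c (0.525) and Kif23 (0.510), against 12.1% of all members. Kif2c was at -0.277 in XO cells and at its lowest 0.454 without 1 cell. Kif23 fell to 0.198 without the cell of well F01 and Tubb4b to 0.414 without that of F02. Ckap2, at -0.0829, was the lowest and the only negative member. The cross-allele correlation between genes had a median of 0.123 (0.0937 to 0.143) and the mean of the list a shared share of 0.807 (0.730 to 0.844). Without each gene's highest cell 5 of the 34 reached 0.5. In XO cells the list had a median share of 0.348 and 11 genes at or above 0.5, against 13.6% of all members. The 20 S-phase genes that passed were closer to all members, with a median of 0.252, and 3 of them reached 0.5, near the 12.1% of all members: Pcna (0.567), the sliding clamp of DNA replication, Gins2 (0.553) and Rpa2 (0.548). XO cells gave these genes 0.502, 0.575 and 0.0863. Pold3 was at -0.0129 in XX cells. In XO cells the S-phase list had a median of 0.287 and 5 genes at or above 0.5, against 13.6% of all members. The means of the 2 lists were inversely related across alleles, with correlations of -0.326 (Cast mitosis with Mus S phase) and -0.382 (the reverse) over the 23 cells.

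The mitotic promoters show which letters these genes have in common. RefSeq promoter windows (GRCm38.p6, 250 bases before to 50 after the start, both strands searched) were found for 1363 of the 1697 members. CCAAT was present in 24 of the 30 mitotic genes with a window (80.0%), in 41.4% of members and in 37.6% of all 32619 RefSeq promoters. TTTGAA was present in 22 of the 30 (73.3%), in 14.6% of members and in 17.6% of all promoters. Among the 8 mitotic genes with a shared share of at least 0.5, 6 had both motifs, and among the 22 others with a window 12 had both. The 110 bases before the start of Top2a, Ube2c and Cdc20 are shown because these genes lie high on the shared share and hold both motifs close together, at chr11:99024190-99024299 (minus strand), chr2:164769819-164769928 (plus strand) and chr4:118437344-118437453 (minus strand). Capitals mark CCAAT and TTTGAA on either strand, and the sequences read towards the gene.
Top2a: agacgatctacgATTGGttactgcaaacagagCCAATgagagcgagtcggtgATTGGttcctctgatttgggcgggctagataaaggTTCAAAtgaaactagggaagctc
Ube2c: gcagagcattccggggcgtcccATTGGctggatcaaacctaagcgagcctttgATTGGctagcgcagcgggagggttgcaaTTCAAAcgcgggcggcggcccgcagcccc
Cdc20: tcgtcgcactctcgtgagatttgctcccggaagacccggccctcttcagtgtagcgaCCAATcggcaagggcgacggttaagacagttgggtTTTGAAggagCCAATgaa
In Top2a CCAAT begins 98, 78 and 58 bases before the start and TTTGAA 23 bases before it. In Ube2c CCAAT begins 88 and 57 and TTTGAA 29 bases before the start, and in Cdc20 CCAAT begins 53 and 8 and TTTGAA 18 bases before it. A match is a description of the letters and not evidence of binding in these cells.

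The amino acid stress response is driven by the transcription factor ATF4, which raises amino acid synthesis, transport and tRNA charging when amino acids are short. Of 40 genes 19 passed, with a median shared share of 0.423 and 7 genes at or above 0.5. The highest were the asparagine synthetase gene Asns (0.766) and the transporter subunit gene Slc3a2 (0.760), followed by the glycyl-tRNA synthetase gene Gars (0.669), Cth (0.60), Atf4 itself (0.551), Sesn2 (0.540, at its lowest 0.354 without 1 cell) and Psph (0.510). Sars, at 0.0597, was the lowest. Without each gene's highest cell 3 of the 19 reached 0.5. Asns ranged from 0.379 to 9.61 on Cast (median 3.23) and from 0.443 to 9.88 on Mus (median 2.48), and the same pair of cells was highest on both alleles. In XO cells Atf4 had 0.772 and Asns 0.533, but Slc3a2 had -0.111. The median cross-allele correlation between genes of the list was 0.173 (0.147 to 0.194), and 0.209 in XO cells.

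The list's mean had a shared share of 0.816 (0.798 to 0.846), and it followed the glycolysis list. The correlation was 0.662 between Cast glycolysis and Mus amino acid genes and 0.581 in the reverse, the highest of the 36 pairs of list means computed. The ATF4 recognition element, searched as TGATGNAA, was found in 5 of the 16 promoter windows of the list (31.3%), against 2.86% of members and 3.87% of all promoters. The core of the hypoxia response element, ACGTG, was found in 6 of 13 windows of the glycolysis list (46.2%), those of Slc2a1, Hk2, Ldha, Pgm2 and the hypoxia targets P4ha1 and Ankrd37, in 31.5% of members and 19.8% of all promoters. Of the listed genes with a shared share of at least 0.5, 2 of 6 held it, and of those below 0.5, 4 of 7. Shown are Asns and Gars, the highest members of the amino acid list with the element (chr6:7693210-7693319 on the minus strand and chr6:55037891-55038000 on the plus strand), and Ldha and Hk2, the glycolysis genes at or above 0.5 with ACGTG (chr7:46845694-46845803 on the plus strand and chr6:82774455-82774564 on the minus strand), each as the 110 bases before the start with the match in capitals.
Asns: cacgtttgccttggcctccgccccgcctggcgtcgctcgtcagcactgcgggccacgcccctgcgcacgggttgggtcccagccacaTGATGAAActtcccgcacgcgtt
Gars: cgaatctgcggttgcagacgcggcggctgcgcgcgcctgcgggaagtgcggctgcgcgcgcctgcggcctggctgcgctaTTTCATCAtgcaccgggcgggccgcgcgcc
Ldha: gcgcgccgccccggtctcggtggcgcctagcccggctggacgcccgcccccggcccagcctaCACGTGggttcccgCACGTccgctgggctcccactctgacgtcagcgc
Hk2: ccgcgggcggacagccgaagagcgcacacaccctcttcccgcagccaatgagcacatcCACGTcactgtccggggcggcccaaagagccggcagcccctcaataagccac
In Ldha the matches at 48 and 47 bases before the start are the same letters read on opposite strands.

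Pluripotency genes differed widely in their shared share, and correlations between them were low. Among 7 genes listed as naive transcription factors, of which Tcl1 is not one, the median shared share was 0.409. Of these genes 3 reached 0.5: Tcl1 (0.667), Sall4 (0.665) and Nanog (0.612). Sox2 had 0.409, Esrrb 0.112 and Pou5f1 -0.00109. Zfp42 had 0.244, with unequal means of 274 counts per cell on Cast and 11.3 on Mus. Without the 5 cells of plate column 6, tried once the data had been seen, the median of these 7 genes was 0.188. All members had 0.192, and 3 of the 7 again reached 0.5. The alleles of Pou5f1 varied little, from 0.387 to 1.76 on Cast and from 0.476 to 2.21 on Mus, with an allele-specific CV squared of 0.113 against a counting part of 0.0610. Those of Nanog had a shared CV squared of 0.216. Of 19 other pluripotency genes, with a median of 0.409 as well, 6 reached 0.5, among them Tdgf1, Dppa3 (0.744), the threonine dehydrogenase gene Tdh (0.696) and Utf1 (0.583). Tdh fell to 0.393 without the cell of well F02 and was at -0.0971 in XO cells. Alpl, the alkaline phosphatase gene, was the lowest at -0.0555. Dppa3, a maternal-effect gene that is on in a fraction of naive cells, had a shared CV squared of 1.68. The median cross-allele correlation between genes was 0.0148 for the 7 genes of the naive list and 0.0145 for the other genes. In XO cells the medians were lower, 0.0547 for the 7 genes and 0.170 for the 19 genes, with 1 and 6 genes at or above 0.5. Dppa3 and Tcl1 were among those that stayed high (0.723 and 0.567), and Nanog was at 0.115.

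Genes of large complexes varied little. The 25 ribosomal protein genes had a median shared share of 0.112 and 3 at or above 0.5, a share of genes near the 12.1% of all members. Without scaling to the cell total their median was 0.251 against 0.204 for all members, and in XO cells it was 0.186 against 0.174, so that their place below all members did not hold in either. The 22 proteasome genes had a median of 0.0722 with 1 gene at or above 0.5, 0.0887 without scaling and 0.0929 in XO cells, each below the value of all members. Both lists had a small variation, with a median shared CV squared of 0.0103 and 0.0102 and a median allele-specific CV squared of 0.157 and 0.165. Rpl35 (-0.188), Psma4 (-0.272) and Psmb4 (-0.167) were among the 8 ribosomal and 9 proteasome genes below 0, and Psma3 (0.552, overlapping another counted gene) was high. The 24 oxidative phosphorylation genes had a median of 0.220, from Atp5c1 (-0.347) to Uqcrc1 (0.644, and 0.0653 in XO cells). In XO cells their median was 0.385. At or above 0.5 were 4 of the 24 in XX cells, near the 12.1% of all members, and 12 in XO cells, where all members gave 13.6%.

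The other lists were small, and their counts at or above 0.5 stand against 12.1% of all members. Of 5 p53 pathway genes, Ccng1 (0.663), Cdkn1a (0.569) and Pmaip1 (0.547) reached 0.5, and Trp53 itself had 0.257. The list had a median of 0.547 in XX cells, above the 0.497 of glycolysis. In XO cells its median was 0.273, with 1 gene at or above 0.5. Of 13 chaperone genes 3 did, Hsp90ab1 (0.672), Hsp90aa1 (0.571) and Hspa5 (0.507), whereas Cct2, of the TRiC chaperonin, had 0.0712. Of the cholesterol genes Cyp51 (0.571) did, and Pmvk had 0.0382. Of 8 oxidative stress genes, with no metallothionein gene among those that passed, Sod1 (0.576, overlapping another counted gene) and Gsto1 (0.528) did, and Cat had -0.0953. Gsto1 fell to 0.257 without the cell of well C03, and Sod1 was at -0.0439 in XO cells. Of 6 Polycomb genes Pcgf6 (0.620) and Jarid2 (0.580, and 0.0789 in XO cells) did, with Phc1 lowest at 0.186, and of 5 DNA methylation genes 0 did, from Dnmt3l (0.427) to Tet1 (0.0384). Of 4 genes of the imprinted list, Cd81 (0.621, overlapping another counted gene) and Slc38a4 (0.524, and 0.343 without the cell of well F04) did, and Tssc4 had 0.0360. Of the primed, endoderm, fibroblast, 2-cell and MAPK lists 1 gene each passed the filter on expression: Dnmt3b (0.0766), Sparc (0.419), Vim (0.170), Eif1a (0.0831) and Etv5 (-0.056).

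**Figure D4:**
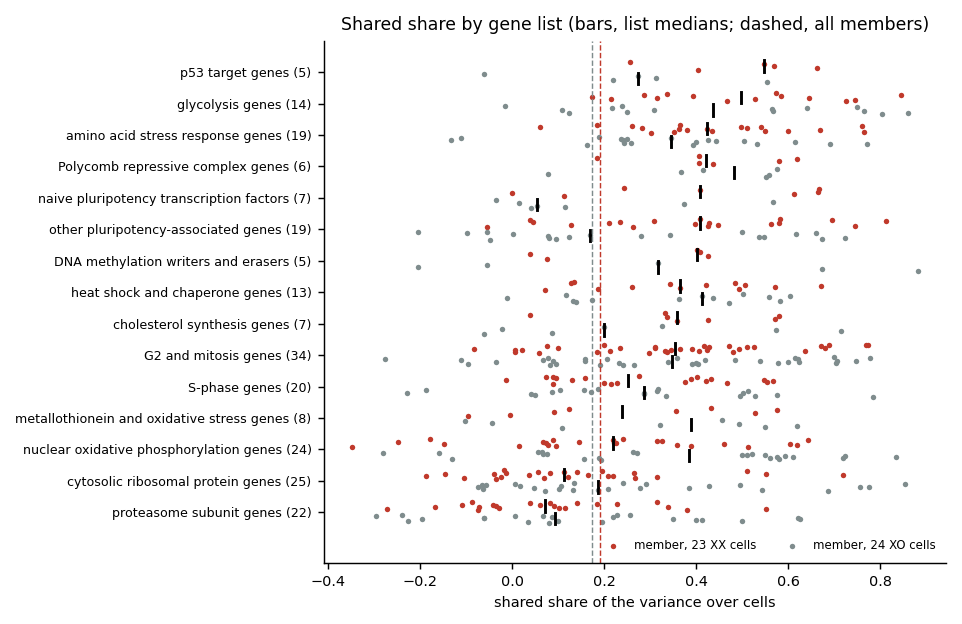
The shared share of each member of the lists with at least 5 members is plotted for XX cells (red) and XO cells (grey), with list medians as black bars, the number of members in brackets and the medians of all 1697 genes as dashed lines. The list medians lie to the right of both dashed lines in both sets of cells, except for both pluripotency lists, ribosomal protein genes and the proteasome. Those of the proteasome lie to the left in both.

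The 24 XO cells gave the same genes a second measurement on other cells of the plate. Their median shared share was 0.174, with 230 genes at or above 0.5 (13.6%) and 413 negative. The allele-specific CV squared was higher, with a median of 0.731, and it ordered the genes much as in XX cells, with a Spearman's rho of 0.81 over genes. The shared share was far less repeatable, at 0.20. It rose with expression, from 0.14 for the 1286 genes below 20 counts to 0.24 for 308 genes between 20 and 50 and 0.43 for the 103 genes above. These values describe genes that share cells and depth, and they carry no p-value.

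The named ends differed in expression, with a median mean of the lower allele of 55.2 counts at the shared end and 10.8 at the negative end. Of the 12 genes of the shared end, 9 were again at or above 0.5 in XO cells and their median went from 0.789 to 0.668. Within the XO classes 8 of the 12 were at or above 0.5 in the cells with the Cast X and 7 in those with the Mus X. Of the 12 at the negative end, 2 (Jkamp and Cetn3) were negative again and their median went from -0.363 to 0.167, next to the 0.174 of all genes. The 100 highest shared shares went from a median of 0.668 to 0.387, with 41 at or above 0.5, and the 100 lowest from -0.233 to 0.144, with 29 negative, where 413 of all 1697 were. Among genes averaging 50 counts or more, 22 of the 37 with a shared share of at least 0.5 (59.5%) had one again, and 19 of the 66 others (28.8%) had one in XO cells. Below 50 counts these were 43 of 168 (25.6%) and 146 of 1426 (10.2%).

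**Figure D5:**
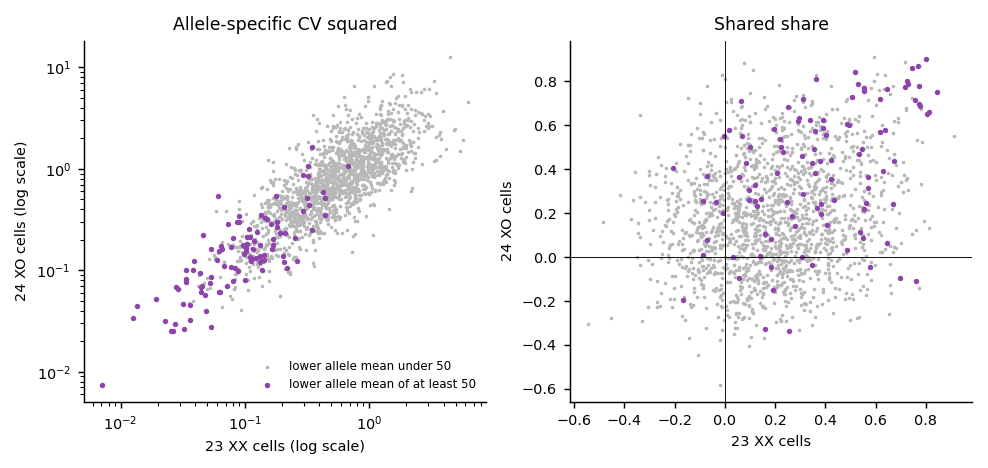
The allele-specific CV squared (left, both axes on log scales) and the shared share (right) of each gene in XX cells are plotted against those in XO cells, with the 103 genes of a lower allele mean of at least 50 in purple. The allele-specific part rises together in both sets of cells over the whole range, and the shared share scatters widely apart from a group of well-expressed genes at the upper right.

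For neighbouring genes the allele-specific part had median correlations near 0. The difference between the scaled alleles was correlated over XX cells between pairs of genes that do not overlap. The median correlation was -0.0043 for 158 pairs less than 10 kb apart, -0.0037 for 457 pairs at 10 to 100 kb, 0.0070 for 2440 pairs at 100 kb to 1 Mb and -0.00055 for pairs on different chromosomes. A correlation above 0.5 was found for 1.97% of the pairs at 10 to 100 kb (9 pairs) and 0.909% of the pairs on different chromosomes, and for 1.53% and 0.808% with each gene's highest cell capped at its second highest. The highest pair under 10 kb was Brca1 and Nbr1, which lie 194 bases apart, with 0.527, and with the cap 0 of the 158 pairs exceeded 0.5. Median shared shares per chromosome ran from 0.122 for the 79 genes of chromosome 13 to 0.258 for the 59 genes of chromosome 14. The 119 genes of chromosome 1 and 70 X-linked genes that met the same minimum had medians of 0.185 and 0.157. The letters of the TATA box, TATAAA, were counted at both ends of the allele-specific part. They were found in 10 of 81 windows of the 100 genes with the highest allele-specific CV squared (12.3%) and in 9 of 74 of the 100 lowest (12.2%), against 7.19% of members and 13.7% of all RefSeq promoters.

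The correlation of the summed alleles with the cell total had a median of -0.011 over the members, with quartiles of -0.149 and 0.143. At the minimum of 5 counts, 2700097O09Rik, Ccdc127 and D16Ertd472e lay just inside and Apela, Babam2 and Bnip3 just outside, at 4.96.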

How the data were processed

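Allelic read counts of single iPSCs from 1 plate were used. The authors deposited counts per gene and allele, not normalized, with 2 columns per cell whose names carry the class of the cell. The mapping of this plate is not described separately. For other plate libraries the methods describe STAR (2.5.3a in the submitters' processing notes, with mm10), SNPsplit and counts at SNP positions, for genes with at least 4 SNPs, so that a read over several SNPs may count several times. Positions came from GENCODE M21 (13945 symbols) and RefSeq (1), and 1 symbol was placed by neither. Counts were scaled to the cell total per 10000, and the split was computed with Python 3.11.15, numpy 2.4.6, pandas 2.3.3 and scipy 1.17.1, and drawn with matplotlib 3.10.9. It was tested on simulated data. Depth of 130816 to 198307 counts per XX cell puts the rarest members at 5 counts an allele, where 1 cell can set a value. Genes, lists and the rule of naming (12 most shared and 12 most negative genes that hold without any 1 cell, 6 highest in either part, 5 steadiest, extremes of each list) were chosen with earlier results of these data known. Some genes that the rule names are not reported here. Alternatives varied the minimum mean, scaling, transformation, cells and overlapping genes.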

Additional observations from a re-analysis of the deposited data

How the results depend on the processing

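The median shared share stayed positive and below 0.3 under every setting tried. It was 0.147, 0.210 and 0.251 with a minimum mean of 2, 10 and 20 counts (3109, 881 and 411 genes), 0.204 without scaling, 0.212 on a log scale, 0.221 on ranks, 0.223 with the counting part subtracted, 0.199 without overlapping genes, and 0.176 without the 3 cells with the lowest totals, a setting chosen after seeing the data. Without its highest cell, each gene had a median share of 0.113, 101 genes in place of 205 reached 0.5, and the counts of the lists fell to 4 of 14 for glycolysis, 3 of 19 for amino acid stress, 5 of 34 for mitosis and 3 of 19 for pluripotency. The proteasome median then turned to -0.00732. By its construction this setting takes away the highest cell of each gene. Without scaling the ribosomal list had 0.251 in place of 0.112. Leaving out the 5 cells of plate column 6 was also chosen after seeing the data. The median of the 7 genes of the naive list was then 0.188 in place of 0.409, and the cause was not tested. With minima of 2, 10 and 20 counts, 308, 126 and 80 genes reached 0.5 and 844, 180 and 71 were negative. The median shared CV squared was 0.113, 0.0648 and 0.0505 with these minima, 0.101 without scaling, 0.0437 without the highest cell and 0.0969 without overlapping genes. The median allele-specific CV squared was 0.923, 0.305 and 0.186 with these minima, 0.495 for genes read on each allele in at least 0.5 of cells, 0.533 after thinning, 0.430 with the counting part subtracted and 0.533 without the highest cell. Leaving out any 1 cell gave 194 to 217 genes at or above 0.5 and 379 to 406 negative genes, median shares of 0.180 to 0.197, and medians of 0.0865 to 0.0940 and 0.499 to 0.525 for the parts. The 12 genes at each end kept their side of 0.5 and of 0 under 7 settings, which use the values that chose them, and for the setting without the highest cell the choice itself fixes the outcome. No paired analysis was possible because the labels name 1 group. Depth limits the shared share of genes near the minimum, where a single cell moves it most.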

Other observations

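Some genes outside the rule of naming had high shared shares in XX cells and are given here, chosen after their values were seen. Chchd10, a protein of the mitochondrial intermembrane space, had 0.768 (0.709 to 0.823 without any 1 cell) and 0.871 in XO cells. Ftl1, the ferritin light chain that stores iron, had 0.729 (0.687 to 0.779) and 0.789. The glutamine transporter gene Slc1a5 had 0.72 (0.689 to 0.768) and 0.676. The autophagy receptor gene Calcoco2 had 0.72 (0.665 to 0.815) and 0.668. Zfp296, a zinc finger factor gene of pluripotent cells that overlaps another counted gene, had 0.746 (0.707 to 0.808) and 0.103.

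Dnmt3b, a de novo DNA methyltransferase gene, stood at 0.0766 in XX cells and 0.883 in XO cells, with 0.669 in the cells with the Cast X and 0.930 in those with the Mus X. No test of the difference between the classes was made.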
